A study of Homo sapiens with 9 samples.

Results

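NRF2, the transcription factor encoded by NFE2L2, was examined together with its inhibitor KEAP1 and 7 of its classic antioxidant targets, NQO1, HMOX1, GCLC, GCLM, TXNRD1, SRXN1 and AKR1C1, in the transcriptome of OVCAR5 cells, an established human ovarian cancer line. These 9 genes were listed by name, with earlier results of these data known, and no cut-off on measured values was used. Their symbols were matched to the identifiers of the count table through the GENCODE annotation, and all 9 were found among its 60649 identifiers. All 9 also passed the filter on low counts, which left 19674 genes for testing.

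Lentivirus had been used to transduce the cells, which were then kept under puromycin selection, and polyadenylated RNA was sequenced from 9 libraries, 3 labelled NC, 3 labelled SM2 and 3 labelled SM4. NC is given as the control, described as parental cells in the labels and as cells with a control hairpin in the methods of the study. SM2 and SM4 are given as METTL3 knockdown, without a statement of which hairpin each carried. A source field gives the names OVCAR6, OVCAR7 and OVCAR8 to the 3 libraries labelled SM4, whereas all 9 libraries are OVCAR5 in the cell line field. No drug treatment is labelled in any group. Nothing states that the 3 libraries of a label came from separate cultures, so the p-values measure only the spread between these libraries, which may be technical.

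METTL3, the m6A methyltransferase subunit that the labels give as depleted, went against them. Its level was 36.25, 34.4 and 36.65 CPM (counts scaled to the TMM-adjusted library total) in the libraries labelled NC, 37.1, 39.8 and 40.0 CPM in those labelled SM2, and 60.6, 57.5 and 62.4 CPM in those labelled SM4. The log2 fold change was 0.12 for SM2 against NC (edgeR adjusted p = 0.12) and 0.75 for SM4 against NC (SE 0.0539, edgeR adjusted p = 2.21e-09). METTL3 shares 6.62% of its exon bases with TOX4 on the other strand. The labels and the supplement of the study differ on which libraries are the control. The labels make NC the control, but the fold changes in the supplement carry the signs that result with SM4 as the control. METTL3, TXNIP and AKR1C2 appear both in that list and here. Their values for SM4 against NC (0.75, 1.12 and -1.25), with signs turned, nearly equal those of shMETTL3-1 against shNC in the study. Those for SM4 against SM2 (0.63, 0.35 and -0.42), with signs turned, nearly equal those of shMETTL3-2 against shNC. By these values SM4 corresponds to shNC, NC to shMETTL3-1 and SM2 to shMETTL3-2, though no label states this. Groups were kept as labelled, and with SM4 as the control each SM4 comparison below is to be read with its sign turned, while SM2 against NC compares the knockdowns with each other. Every direction given here is therefore a direction between libraries labelled SM2, SM4 and NC, and SM2, SM4 and NC name those labels throughout. Libraries held 44103272 to 63693728 counts, and replicates of a label correlated with a Pearson r of 0.991 to 0.993 across genes, lowest between SM2 replicates 1 and 3.

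The epithelial label was checked against its markers. EPCAM lay at 594.7 to 721.2 CPM, KRT8 at 4695 to 5988 CPM and CDH1 at 612.7 to 830.4 CPM, while the leukocyte markers PTPRC, CD3E and CD68 together reached at most 0.181 CPM and the erythroid genes HBB and HBA1 were at 0 counts in all 9 libraries. Of the ovarian carcinoma markers, PAX8 lay at 7.91 to 9.57 CPM, MUC16 at 7.31 to 29.9 CPM and WT1 at 0 to 0.208 CPM. The gastrointestinal factor CDX2 lay at 8.35 to 12.75 CPM, whereas the other gastrointestinal markers were lower, CDH17 at 0.166 to 0.696 CPM and VIL1 at 1.42 to 3.24 CPM. COL1A1 was at 20.98 to 25.75 CPM and PECAM1 at 5.30 to 15 CPM, with the further fibroblast markers COL1A2 and DCN at or below 0.27 CPM and the endothelial marker CDH5 at or below 0.205 CPM. In RNA from a whole culture, fewer cells of a kind and less RNA per cell cannot be told apart.

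As background, NRF2 is held low in unstressed cells by KEAP1, which presents it to a cullin 3 ubiquitin ligase for degradation. Oxidants and electrophiles modify cysteines of KEAP1, so that NRF2 accumulates, pairs with a small MAF protein and binds antioxidant response elements (AREs) near genes for glutathione synthesis, thioredoxin reduction, quinone and carbonyl detoxification, haem breakdown and NADPH supply. BACH1 competes for many of the same elements and represses them. In ovarian cancer, glutathione and NRF2 activity are studied as determinants of the response to platinum drugs. NRF2 is controlled largely at the protein level, and its protein was not measured here.

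The element itself is shown because it is the sequence that the targets are known for. The core TGACNNNGC was searched on both strands from 1000 bases before to 50 bases after the start of the GENCODE canonical transcript (GRCh38). It was found in the windows of NQO1, GCLC, GCLM and TXNRD1, which is 4 of the 8 genes with a promoter entry, TXNRD1 having 2 matches. These entries are the RefSeq promoter windows used below. HMOX1 was not among them and was left out of this count as well, although a search around the canonical start needs no such entry. Of 13785 tested protein-coding genes, 35.5% held at least 1 match in a window of the same length, so the letters alone are common. The matches, in capitals, with the flanking 16 bases on each side in lower case, were read 5′ to 3′ on the strand named below.
GCLM, chr1:93909440-93909480, plus strand, centred at -30 from the start: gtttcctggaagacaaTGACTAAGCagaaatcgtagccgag
NQO1, chr16:69726991-69727031, minus strand, centred at -451: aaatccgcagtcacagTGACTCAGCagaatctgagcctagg
TXNRD1, chr12:104215664-104215704, plus strand, centred at -95: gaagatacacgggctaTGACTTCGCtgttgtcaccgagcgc
TXNRD1, chr12:104215755-104215795, minus strand, centred at -4: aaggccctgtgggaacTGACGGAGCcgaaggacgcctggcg
GCLC, chr6:53545947-53545987, plus strand, centred at -866: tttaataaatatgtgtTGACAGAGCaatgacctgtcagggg
In the RefSeq promoter windows of 300 bases, a length chosen after the data were seen, KEAP1, GCLM and TXNRD1 held the core, 3 of 8, beside 16.1% of 27305 genes. A match is a stretch of letters, and no binding was measured.

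NQO1, HMOX1, GCLC, GCLM and TXNRD1, 5 of the 7 targets, were lower in SM2 and in SM4 than in NC, whereas NFE2L2 and KEAP1 passed the test in no comparison. SRXN1 and AKR1C1 did not pass either. Among the genes that passed, in SM2 against NC TXNRD1 fell by 14.4%, the least, and GCLM fell by 46.2%, the most, while in SM4 against NC NQO1 fell by 11.2%, the least, and GCLM fell by 37.0%, the most. In SM2 against NC, 5 of 9 genes were called lower and 0 higher, where 10.3% of all genes tested were called lower, 12% higher and 22.3% in either direction. In SM4 against NC, 5 of 9 were called lower and 0 higher, beside 10.2% of all genes lower, 11% higher and 21.2% in either direction. DESeq2 also called 5 lower and 0 higher in each comparison, and at an unadjusted p below 0.05 edgeR gave 5 lower and 0 higher. Of all genes, 32.97% in SM2 and 31.7% in SM4 against NC had such an unadjusted p, in either direction. The median log2 fold change of the 9 genes was -0.23 in SM2 and -0.24 in SM4, beside -0.0037 and -0.0011 for all genes. Both comparisons use the same 3 libraries labelled NC. Because the control label is in doubt, the same fit is also given with SM4 as the reference: the same 5 targets were then higher in NC, and in SM2 NQO1 and GCLM were the genes called, both lower. Calls required an adjusted p below 0.05, which edgeR's quasi-likelihood F statistic gave after Benjamini-Hochberg correction over all 19674 genes, and intervals are 95% intervals of the log2 fold change from that fit.

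**Figure D1:**
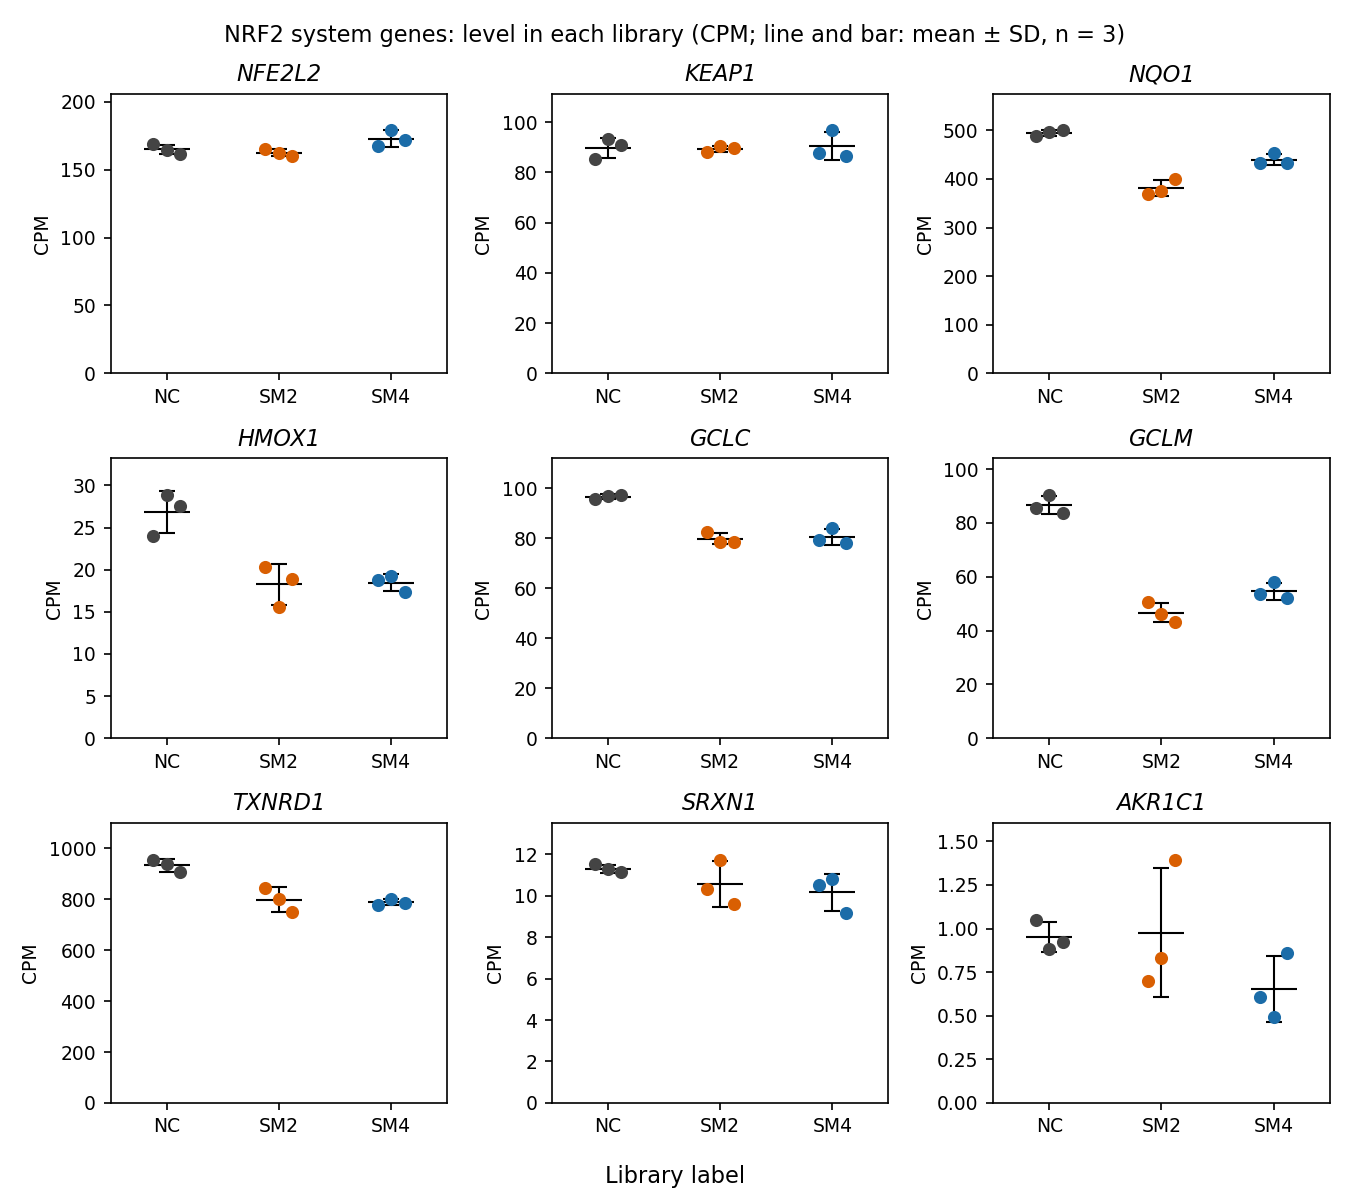
Level of each of the 9 genes in every library, in CPM on a linear axis from 0, for the labels NC, SM2 and SM4. Points are libraries, and the horizontal line and bar are the mean and SD of 3 libraries. For NQO1, HMOX1, GCLC, GCLM and TXNRD1 all 6 libraries labelled SM2 or SM4 lie below every library labelled NC. How many of all genes tested separate in this way was not counted.

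The regulators come first. NFE2L2 (ENSG00000116044.16, chromosome 2, 177218667 to 177392756, minus strand) stood at 168.5, 164.6 and 161.7 CPM in NC, 165, 162.5 and 160 CPM in SM2, and 167, 179.1 and 172.1 CPM in SM4. The libraries of SM2 and of SM4 both overlapped those of NC, and the SM4 libraries lay above the SM2 libraries without overlap. Its log2 fold change was -0.02 in SM2 against NC (interval -0.11 to 0.067, edgeR adjusted p = 0.783), 0.07 in SM4 against NC (interval -0.021 to 0.155, adjusted p = 0.304) and 0.09 in SM4 against SM2 (interval 0.00031 to 0.176, unadjusted p = 0.0493 and adjusted p = 0.194 in edgeR). The intervals against NC thus left out changes in transcript level beyond about 0.155 on the log2 scale. NFE2L2 shares 23.4% of its exon bases with HNRNPA3 on the opposite strand, which stood at 369.4 to 429.4 CPM and was itself higher in SM2 against NC by 0.18 on the log2 scale (edgeR adjusted p = 0.00162). The strand setting of the counting is not given in the sources used here, so reads of this overlap cannot be told apart. A non-coding gene on the same strand shares 13.6% of the exon bases of NFE2L2 and stood at 1.62 to 2.36 CPM.

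KEAP1 (ENSG00000079999.14, chromosome 19, 10486125 to 10503558, minus strand), the sensor that targets NRF2 for degradation, stood at 85.4, 93.2 and 90.8 CPM in NC, 88.2, 90.5 and 89.5 CPM in SM2, and 87.8, 96.8 and 86.5 CPM in SM4. All 3 labels overlapped. The log2 fold change was -0.01 in SM2 (interval -0.113 to 0.099, edgeR adjusted p = 0.948) and 0.01 in SM4 (interval -0.0972 to 0.114, adjusted p = 0.937) against NC, and 0.02 in SM4 against SM2 (adjusted p = 0.896).

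Glutathione synthesis held the largest change among the 9 genes. GCLM (ENSG00000023909.10, chromosome 1, 93885199 to 93909456, minus strand), the modifier subunit of glutamate-cysteine ligase, the rate-limiting enzyme of glutathione synthesis, stood at 85.7, 90.5 and 83.75 CPM in NC, 50.6, 46.1 and 43.3 CPM in SM2, and 53.6, 58.2 and 52.0 CPM in SM4. No SM2 library exceeded 50.6 CPM and no NC library fell below 83.75 CPM, with SM4 in between but close to SM2. The level fell by 46.2% in SM2 against NC (log2 fold change -0.89, SE 0.0596, edgeR adjusted p = 1.08e-09). In SM4 against NC it fell by 37.0% (log2 fold change -0.67, SE 0.0587, edgeR adjusted p = 3.94e-08).

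GCLC (ENSG00000001084.13, chromosome 6, 53497341 to 53616970, minus strand), the catalytic subunit of the same enzyme, changed less. It stood at 95.6, 96.9 and 97.4 CPM in NC, 82.5, 78.5 and 78.6 CPM in SM2, and 79.1, 84.3 and 77.95 CPM in SM4. The NC libraries were tightly grouped and lay above all others, and SM2 and SM4 overlapped. The log2 fold change was -0.28 in SM2 against NC (SE 0.0462, edgeR adjusted p = 0.000157) and -0.26 in SM4 against NC (SE 0.0460, edgeR adjusted p = 0.00023). Per kilobase of merged exons, the NC mean was 15.97 RPKM (CPM per kilobase) for GCLM and 11.2 RPKM for GCLC, an order that turned with the length of the canonical transcript (17.7 RPKM for GCLM and 25.5 RPKM for GCLC). In SM2 against NC, the 95% intervals of the log2 fold change, -1.02 to -0.77 for GCLM and -0.37 to -0.18 for GCLC, did not meet, although the difference between the genes was not tested. GCLC shares 6.14% of its exon bases with an unnamed gene on the same strand that stood at 0.104 to 0.548 CPM.

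NQO1 (ENSG00000181019.13, chromosome 16, 69706996 to 69726668, minus strand), the quinone reductase that is the most used readout of NRF2 activity, stood at 488.2, 495.8 and 500.7 CPM in NC, 369.5, 374.3 and 399.8 CPM in SM2, and 432.7, 453.1 and 432.9 CPM in SM4. The 3 labels were fully separated, in the order NC, SM4, SM2. NQO1 fell by 22.97% in SM2 against NC (log2 fold change -0.38, SE 0.0413, edgeR adjusted p = 1.03e-06) and fell by 11.2% in SM4 against NC (log2 fold change -0.17, SE 0.0412, edgeR adjusted p = 0.00448).

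HMOX1 (ENSG00000100292.18, chromosome 22, 35380361 to 35394214, plus strand), the inducible haem oxygenase, is a target that BACH1 strongly represses. It stood at 24.05, 28.9 and 27.5 CPM in NC, 20.4, 15.6 and 18.9 CPM in SM2, and 18.8, 19.2 and 17.3 CPM in SM4. Every SM2 and SM4 library was below the lowest NC library, with the wider spread in NC and SM2. HMOX1 fell by 31.9% in SM2 against NC (log2 fold change -0.56, SE 0.0875, edgeR adjusted p = 8.17e-05) and fell by 31.2% in SM4 against NC (log2 fold change -0.54, SE 0.0865, edgeR adjusted p = 9.35e-05).

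Of the thioredoxin arm, TXNRD1 (ENSG00000198431.16, chromosome 12, 104215779 to 104350307, plus strand), the cytosolic thioredoxin reductase, stood at 956.5, 939.4 and 906.5 CPM in NC, 844.9, 802.4 and 750.5 CPM in SM2, and 777.4, 803 and 786.5 CPM in SM4. NC lay above both other labels without overlap. TXNRD1 fell by 14.4% in SM2 against NC (log2 fold change -0.23, SE 0.0431, edgeR adjusted p = 0.000594) and fell by 15.5% in SM4 against NC (log2 fold change -0.24, SE 0.0431, edgeR adjusted p = 0.000272).

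SRXN1 (ENSG00000271303.2, chromosome 20, 646615 to 653200, minus strand), the sulfiredoxin that reactivates over-oxidised peroxiredoxins, stood at 11.5, 11.3 and 11.1 CPM in NC, 10.3, 11.75 and 9.58 CPM in SM2, and 10.5, 10.8 and 9.15 CPM in SM4. SM4 lay below NC without overlap, whereas SM2 overlapped NC. Neither comparison passed, with log2 fold changes of -0.10 in SM2 (interval -0.293 to 0.0929, edgeR adjusted p = 0.502) and -0.15 in SM4 (interval -0.343 to 0.0393, adjusted p = 0.28). A readthrough gene on the same strand covers 90.7% of the exon bases of SRXN1 and was counted at 0 to 0.0624 CPM, so the split of reads between the pair is uncertain.

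AKR1C1 (ENSG00000187134.14, chromosome 10, 4963253 to 4983283, plus strand), an aldo-keto reductase of steroid and carbonyl metabolism, was the least abundant of the 9 genes, with 31 to 74 counts per library. It stood at 1.05, 0.883 and 0.923 CPM in NC, 0.70, 0.832 and 1.40 CPM in SM2, and 0.609, 0.491 and 0.858 CPM in SM4. SM2 straddled NC, with 1 library above and 2 below all of them, and SM4 lay just below NC. The log2 fold change was 0.05 in SM2 (interval -0.55 to 0.65, edgeR adjusted p = 0.93) and -0.55 in SM4 (interval -1.17 to 0.067, adjusted p = 0.215), so that in SM4 a fall as large as that of GCLM lay within the interval. AKR1C1 is nearly identical in sequence to AKR1C2 and less so to AKR1C3, and its counts are uncertain.

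Whether the libraries labelled SM2 and SM4 differed from each other was tested directly, without the NC libraries in the contrast. Of the 9 genes, 2 were called higher in SM4 and 0 lower, beside 6.04% of all genes higher, 6.76% lower and 12.8% in either direction. DESeq2 called 2 higher and 0 lower, and at an unadjusted p below 0.05 edgeR gave 3 higher, NFE2L2 being the other one, and 0 lower. Of all genes, 25.6% had such an unadjusted p in this comparison, in either direction. NQO1 was 15.3% higher in SM4 than in SM2 (log2 fold change 0.21, SE 0.0413, edgeR adjusted p = 0.00172). GCLM was 17.1% higher (log2 fold change 0.23, interval 0.103 to 0.353, edgeR adjusted p = 0.0139), a call that was lost without SM4 replicate 2 (log2 fold change 0.18, adjusted p = 0.107). HMOX1, GCLC and TXNRD1 did not pass, with differences of 0.02 (interval -0.170 to 0.200, edgeR adjusted p = 0.944), 0.01 (interval -0.0847 to 0.108, adjusted p = 0.915) and -0.02 (interval -0.109 to 0.0712, adjusted p = 0.845). For SRXN1 and AKR1C1 the differences were -0.05 (edgeR adjusted p = 0.789) and -0.60 (adjusted p = 0.21).

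Between genes, levels were compared per kilobase only. On merged exons, the NC means were 166.6 RPKM for NQO1, 139.2 RPKM for TXNRD1, 25.1 RPKM for KEAP1 and 15.97 RPKM for GCLM, each separated from the next across its libraries. HMOX1 (11.6 ± 1.09 RPKM, SD, n = 3), GCLC (11.2 ± 0.104 RPKM) and NFE2L2 (11.0 ± 0.229 RPKM) followed, and the ranges of HMOX1 and GCLC, and those of GCLC and NFE2L2, overlapped. SRXN1 at 4.48 RPKM and AKR1C1 at 0.109 RPKM were last, although the counts of both are uncertain, as described above. The order depended on the length: with the canonical transcript, a choice made after the data were seen, NFE2L2 moved to 67.4 RPKM and to the third place, because its merged exons span 14975 bases and its canonical transcript 2446, and TXNRD1 at 242 RPKM passed NQO1 at 196.3 RPKM. GCLM (17.7 RPKM) and HMOX1 (17.3 RPKM) then overlapped.

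**Figure D2:**
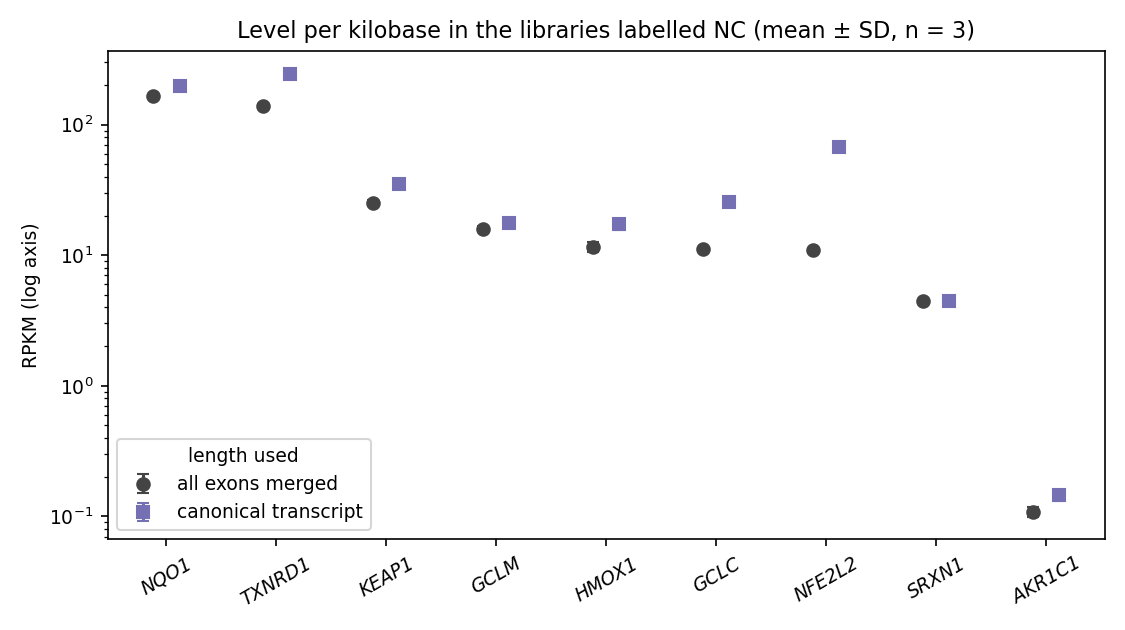
Level per kilobase of the 9 genes in the libraries labelled NC, as mean with SD of 3 libraries on a log axis, with the length of all merged exons (circles) or of the canonical transcript (squares). NFE2L2 shows the widest gap between the lengths, 11.0 against 67.4 RPKM.

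The pathway around these genes was described with 82 further genes in 7 lists, of which 81 were in the table and 79 were tested. In SM2 against NC, 30 of 79 were called (37.97%, beside 22.3% of all genes), 10 higher and 20 lower, with a median log2 fold change of -0.02. In SM4 against NC, 32 were called (40.5%, beside 21.2% of all genes), 11 higher and 21 lower, with a median of -0.07. In SM4 against SM2, 17 were called (21.5%, beside 12.8% of all genes), 9 higher and 8 lower, with a median of -0.02. That count was 11 without SM4 replicate 3 and 8 at an adjusted p below 0.01. The named genes of each comparison are the 5 called higher and the 5 called lower with the largest change.

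**Figure D3:**
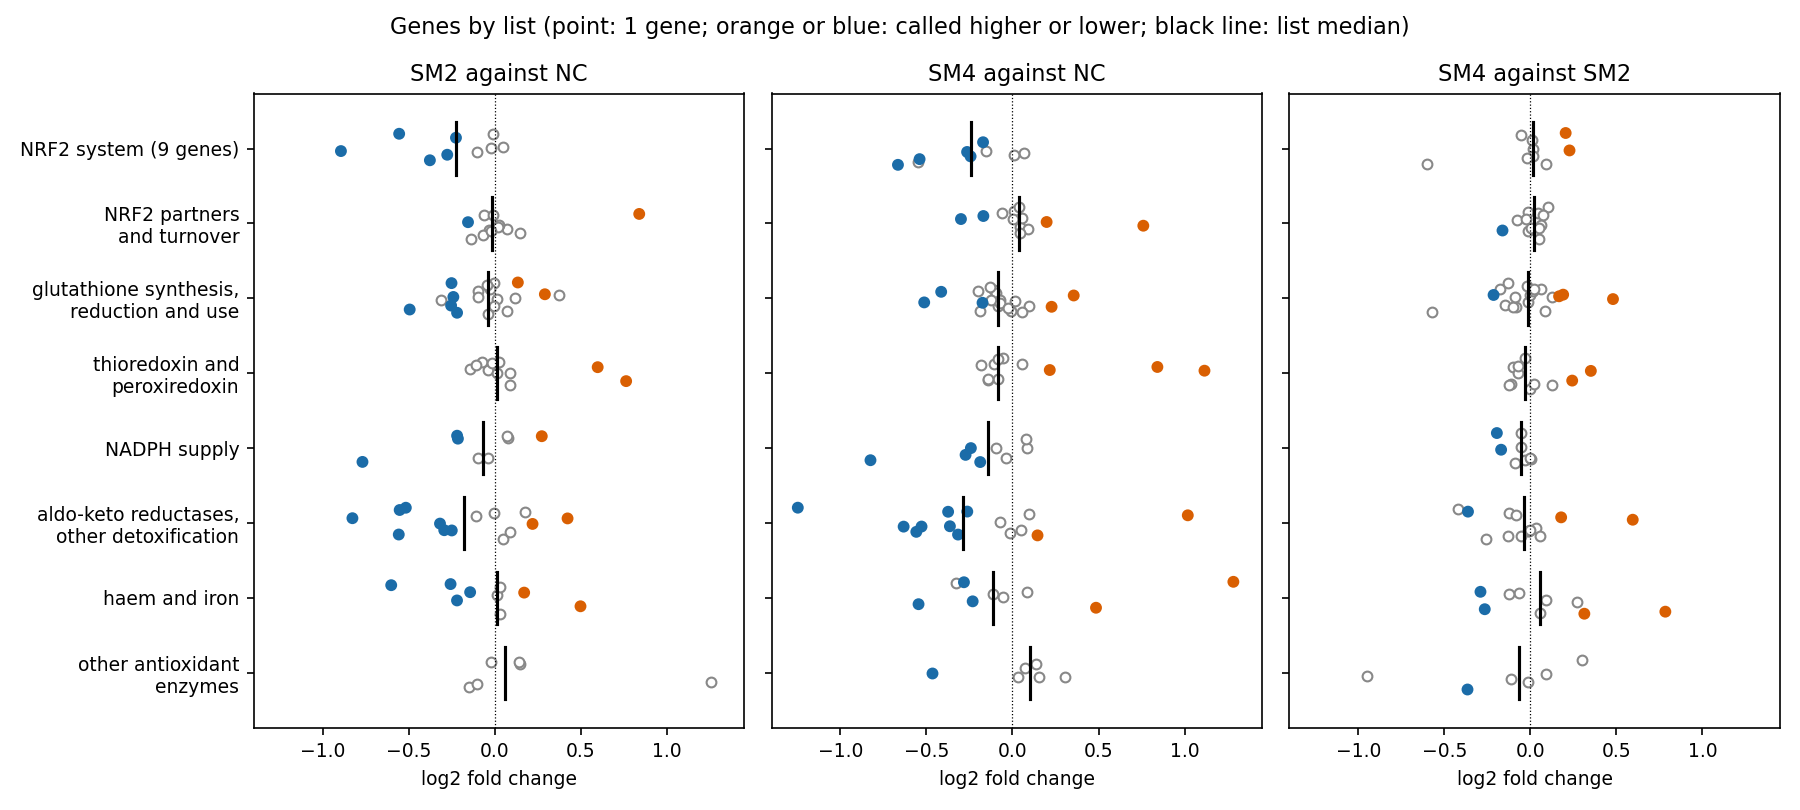
log2 fold change of the 9 genes and of the tested genes of 7 pathway lists in the 3 comparisons, 1 point per gene, with the list median as a black line. Genes called higher are orange and genes called lower are blue. The aldo-keto reductase and detoxification list holds 7 blue and 2 orange points in SM2 against NC and 8 blue and 2 orange points in SM4 against NC. In SM4 against SM2 it holds 1 blue and 2 orange points.

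Among the 12 partners and turnover factors, 1 was called higher and 1 lower in SM2 and 2 higher and 2 lower in SM4 against NC. This is 16.7% and 33.3% of the list, beside 22.3% and 21.2% of all genes. Between SM4 and SM2, 1 of the 12 was called, lower in SM4 (8.33%, beside 12.8% of all genes). BACH1, the repressor that competes with NRF2 for AREs, stood at 48.3, 43.5 and 43.1 CPM in NC, 87.1, 83.85 and 70.5 CPM in SM2, and 75.6, 78.7 and 73.95 CPM in SM4. All 6 libraries labelled SM2 or SM4 lay above the highest NC library. BACH1 was higher by 0.84 in SM2 (SE 0.067, edgeR adjusted p = 1.24e-08) and by 0.76 in SM4 (SE 0.0667, edgeR adjusted p = 3.69e-08) against NC on the log2 scale. The difference between SM4 and SM2 was -0.08 (interval -0.216 to 0.0566, edgeR adjusted p = 0.492).

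In the detoxification list, more genes were called lower than higher against NC. Of its 14 tested genes, 2 were called higher and 7 lower in SM2, with a median log2 fold change of -0.18, and 2 higher and 8 lower in SM4, with a median of -0.29. These calls make 64.3% and 71.4% of the list, beside 22.3% and 21.2% of all genes. Between SM4 and SM2, 3 of the 14 were called, 2 higher and 1 lower in SM4, with a median of -0.03. That share was 21.4%, beside 12.8% of all genes. AKR1C2, a close paralogue of AKR1C1, stood at 7.37, 6.92 and 6.49 CPM in NC, 3.09, 3.85 and 4.72 CPM in SM2, and 2.91, 2.79 and 3.04 CPM in SM4. All its SM2 and SM4 libraries lay below NC, with log2 fold changes of -0.83 (edgeR adjusted p = 0.00012) and -1.25 (edgeR adjusted p = 8.5e-07), and its reads share the uncertainty of AKR1C1. PIR, an iron-binding nuclear protein, had a log2 fold change of -0.56 in each comparison (edgeR adjusted p = 0.000111 in SM2 and 9.22e-05 in SM4). TRIM16L, a TRIM16-related gene whose likeness to TRIM16 makes its counts uncertain, had log2 fold changes of -0.55 in SM2 and -0.63 in SM4 (edgeR adjusted p = 2.37e-06 and 3.08e-07).

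ALDH3A1, an aldehyde dehydrogenase of the same list, went the other way. It stood at 86.8, 80.3 and 91.1 CPM in NC, 111.7, 114.9 and 119.7 CPM in SM2, and 167, 173.4 and 183.1 CPM in SM4. The labels were fully separated, with log2 fold changes of 0.42 in SM2 and 1.02 in SM4 against NC (edgeR adjusted p = 4.09e-06 and 1.33e-11) and 0.60 in SM4 against SM2 (edgeR adjusted p = 7.7e-08). AKR1B10, which reduces retinal and other carbonyls, was lower in SM4 than in SM2 (log2 fold change -0.36, edgeR adjusted p = 0.0149), a call lost without SM2 replicate 3 (-0.27, adjusted p = 0.0661).

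NADPH supply showed 1 gene called higher and 3 lower of 8 in SM2, and 0 higher and 4 lower in SM4, against NC. This is 50% of the list in each comparison, beside 22.3% and 21.2% of all genes. DESeq2, and an unadjusted p below 0.05 in edgeR, also gave 0 higher in SM4. At that unadjusted p, 5 of the 8 passed in each comparison with NC, beside 32.97% and 31.7% of all genes. Between SM4 and SM2, 2 of the 8 were called, both lower in SM4 (25%, beside 12.8% of all genes). ME1, the cytosolic malic enzyme that makes NADPH, stood at 70.9, 70.8 and 67.1 CPM in NC, 41.3, 39.7 and 41.6 CPM in SM2, and 41.0, 38.7 and 38.1 CPM in SM4. Its SM2 and SM4 libraries were far below NC and overlapped each other. The log2 fold change was -0.77 in SM2 (SE 0.051, edgeR adjusted p = 1.03e-09) and -0.83 in SM4 (SE 0.0507, edgeR adjusted p = 2.4e-10).

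Of the 19 genes for glutathione synthesis, reduction and use, 2 were called higher and 5 lower in SM2, and 2 higher and 3 lower in SM4, against NC. This is 36.8% and 26.3% of the list, beside 22.3% and 21.2% of all genes. Between SM4 and SM2, 4 of the 19 were called, 3 higher and 1 lower in SM4 (21.1%, beside 12.8% of all genes). SLC7A11, the cystine importer that feeds glutathione synthesis and a textbook NRF2 and ATF4 target, stood at 185, 190.3 and 164.1 CPM in NC, 155.4, 159 and 138.2 CPM in SM2, and 221.8, 205.2 and 204.3 CPM in SM4. It was below NC in all SM2 libraries and above NC in all SM4 libraries, with log2 fold changes of -0.25 (edgeR adjusted p = 0.00321) and 0.23 (edgeR adjusted p = 0.00729). The direct difference of SM4 against SM2 was 0.48 (SE 0.0587, edgeR adjusted p = 7.49e-06). In SM4 against NC, SLC7A11 was thus called higher and GCLM, a later step of the same route to glutathione, lower. GPX8, a glutathione peroxidase of the endoplasmic reticulum, was lower in SM4 than in SM2 (log2 fold change -0.21, edgeR adjusted p = 0.0222), a call lost without any 1 of 4 libraries, SM2 replicates 1 and 3 and SM4 replicates 1 and 3 (adjusted p up to 0.0936).

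In the thioredoxin and peroxiredoxin list, 2 of 11 genes were called higher and 0 lower in SM2, and 3 higher and 0 lower in SM4, or 18.2% and 27.3% of the list, beside 22.3% and 21.2% of all genes. At an unadjusted p below 0.05 edgeR gave 1 lower in SM2 and 4 lower in SM4, and DESeq2 called 0 lower in both. In either direction, 3 and 7 of the 11 had such an unadjusted p, beside 32.97% and 31.7% of all genes. Between SM4 and SM2, 2 of the 11 were called, both higher in SM4 (18.2%, beside 12.8% of all genes). TXNIP, which binds and inhibits thioredoxin, stood at 181.5, 171.2 and 181.1 CPM in NC, 308.8, 305.4 and 292.4 CPM in SM2, and 387.9, 390.7 and 378.4 CPM in SM4. The labels were fully separated, with log2 fold changes of 0.76 (edgeR adjusted p = 6.22e-11) and 1.12 (edgeR adjusted p = 1.03e-13) against NC and 0.35 in SM4 against SM2 (edgeR adjusted p = 4.42e-06). SESN2, a stress-induced sestrin that promotes KEAP1 degradation, was higher by 0.60 in SM2 and 0.84 in SM4 against NC (edgeR adjusted p = 4.88e-06 and 3.37e-08). TXNRD1, the enzyme that reduces thioredoxin, was lower in the same libraries as described above.

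Haem and iron genes moved in both directions, with 2 of 9 called higher and 4 lower in SM2, and 2 higher and 3 lower in SM4, against NC. This is 66.7% and 55.6% of the list, beside 22.3% and 21.2% of all genes. Between SM4 and SM2, 4 of the 9 were called, 2 higher and 2 lower in SM4 (44.4%, beside 12.8% of all genes). SLC40A1, the iron exporter ferroportin, stood at 6.73, 5.39 and 6.00 CPM in NC, 8.17, 10.36 and 7.04 CPM in SM2, and 16.1, 14.6 and 13.2 CPM in SM4. It was higher in SM2 by 0.50 (edgeR adjusted p = 0.00649), a call lost without SM2 replicate 2 (0.33, adjusted p = 0.0671), and in SM4 by 1.28 (edgeR adjusted p = 1.18e-07). SM4 exceeded SM2 by 0.79 (SE 0.119, edgeR adjusted p = 9.37e-05).

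FTL, the ferritin light chain, a gene with pseudogene copies that can take its reads, stood at 943.6, 986.7 and 984.6 CPM in NC, 780.9, 782.1 and 877.3 CPM in SM2, and 649.4, 687.9 and 659.1 CPM in SM4. The labels were ordered NC, SM2, SM4 from high to low without overlap, and FTL had log2 fold changes of -0.55 in SM4 against NC (SE 0.0456, edgeR adjusted p = 1.9e-08) and -0.29 in SM4 against SM2 (edgeR adjusted p = 0.000141). ABCB6, a porphyrin transporter, was lower in SM2 against NC (log2 fold change -0.60, edgeR adjusted p = 0.00532) and shares 54.6% of its exon bases with an unnamed gene on the same strand. SLC48A1, a haem transporter, was higher in SM4 than in SM2 by 0.31 (edgeR adjusted p = 0.000493). FECH, which inserts iron to form haem, had a log2 fold change of -0.26 in that comparison (edgeR adjusted p = 0.0158). This call was lost without SM2 replicate 2 or SM4 replicate 3 (edgeR adjusted p up to 0.0755).

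Antioxidant enzymes that are not core NRF2 targets gave 0 of 6 called in SM2 and 1 lower in SM4 against NC (16.7%), beside 22.3% and 21.2% of all genes. In SM2 against NC, 3 of the 6 had an unadjusted p below 0.05 in edgeR, all 3 higher, and DESeq2 called 0. Of all genes, 32.97% had such an unadjusted p in that comparison, in either direction. PON2, a membrane lactonase, was the gene called in SM4 and was also lower in SM4 than in SM2 (log2 fold change -0.37, SE 0.049, edgeR adjusted p = 2.37e-05). It was the 1 gene of the 6 called between SM4 and SM2 (16.7%, beside 12.8% of all genes).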

How the data were processed

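The deposited values are raw counts for each gene in 9 libraries, without normalization by the authors. According to the study's methods, reads were aligned to hg38 with hisat2 and counted with Subread. The submitters' processing notes also name fastp and featureCounts. Versions, gene annotation and strand setting are not given in the sources used here. Library kit and read layout differ between the labels and the methods and are thus uncertain. Counts carry no molecular identifiers, so counting error is a lower limit of the error.

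Groups came from the library titles. In R 4.3.3, edgeR 4.0.16 was used with TMM scaling, filterByExpr (19674 genes kept, 40975 removed), 1 model of the 3 labels over 9 libraries, the quasi-likelihood F test and Benjamini-Hochberg adjustment. A level of 1 CPM corresponds to 43.8 to 63.2 counts, and the common biological coefficient of variation was 0.0587. Of 60649 identifiers, 60463 matched GENCODE 44, which gave symbols, positions and lengths; SOD2 was not matched, and CBR3 and CES1 did not pass the filter. RPKM was computed as CPM per kilobase of merged exons. Promoter sequence was GRCh38, or RefSeq for the shorter windows. The fit was also run on simulated counts with known changes, and the outcome is not reported here.

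The genes, the lists and the tests were chosen with earlier results of these data known, so they are not independent support. Named pathway genes were the 5 called higher and the 5 called lower with the largest log2 fold change in each comparison, with a mean of at least 1 CPM. For NFE2L2 and NQO1 the 3 genes with the most similar pattern were also named. Alternatives were 2 other normalizations, 2 other filters, DESeq2 1.42.0, a replicate block, fits on 6 libraries, a threshold of 0.01 and leaving out each library.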

Additional observations from a re-analysis of the deposited data

Results flagged for a closer look

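For 2 of the 9 genes, NQO1 and GCLM, SM2 and SM4 differed by the direct edgeR test of SM4 against SM2. Read with SM4 as the control, both genes were higher in NC and lower in SM2, so NC and SM2 went opposite ways. Their log2 fold changes for SM4 against NC were -0.17 and -0.67. NQO1 was higher in SM4 by 0.21 on the log2 scale (adjusted p = 0.00172), with all 3 SM4 libraries above all 3 SM2 libraries, and passed under every alternative run. GCLM was higher by 0.23 (adjusted p = 0.0139), with the same separation, and did not pass at the threshold of 0.01 or without SM4 replicate 2 (adjusted p = 0.107). Groups of 3 libraries are too small for a check of single outlying values.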

How the results depend on the processing

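The counts of 5 called genes in SM2 and 5 in SM4 against NC, all lower, held under each of the 17 alternatives. In SM4 against SM2 the count of 2 became 1 at an adjusted p below 0.01 and lay between 1 and 2 when libraries were left out. Of the other pathway genes, 24 to 35 were called in SM2 and 25 to 39 in SM4 against NC when a library was left out, and 24 to 32 and 23 to 41 under the other settings. In SM4 against SM2, 8 were called at an adjusted p below 0.01 and 11 to 17 when a library was left out, fewest without SM4 replicate 3; the cause was not tested.

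The sign changed only for values that passed no test. KEAP1 in SM2 against NC became 0.0069 on the log2 scale with upper-quartile normalization. Leaving out libraries gave -0.043 to 0.0195 for KEAP1 in SM2 and -0.045 to 0.0379 in SM4 against NC. In SM4 against SM2 the ranges were -0.0383 to 0.046 for KEAP1, -0.0823 to 0.0966 for HMOX1, -0.0242 to 0.0352 for GCLC, -0.0629 to 0.0227 for TXNRD1 and -0.118 to 0.036 for SRXN1. AKR1C1 in SM2 against NC ranged from -0.303 (without SM2 replicate 3) to 0.237. The replicate block called 5, 5 and 2 of the 9 genes. Replicate numbers were not shown to pair libraries. For this, each library's deviations of log2 CPM from the mean of its label were correlated across genes. Between same-numbered libraries of different labels the correlation lay between -0.053 and 0.045. With a filter on a mean of 1 CPM, AKR1C1 was not tested. METTL3 in SM4 against NC stayed between 0.72 and 0.78.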

Other observations

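Over the 9 libraries, the genes whose pattern of log2 CPM lay closest to that of NFE2L2, by the root mean square difference after centring each gene, were KCTD10 (0.0233), AP1B1 (0.0239) and ACTL6A (0.025) among 13788 genes. Those closest to NQO1 were AP1S1 (0.0283), MLX (0.0311) and SERPINA5 (0.0313). MLX, the partner of glucose-responsive MondoA and ChREBP, had log2 fold changes of -0.38 in SM2 and -0.20 in SM4 against NC. These genes were picked for their likeness in the same libraries, so their values are a description with no test.

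Some pathway genes outside the naming rule were chosen after their values were seen. UGDH, which makes UDP-glucuronate, had log2 fold changes of -0.52 in SM2 and -0.53 in SM4 against NC (edgeR adjusted p = 1.58e-07 and 8.25e-08). GPX2, an NRF2-responsive glutathione peroxidase, had log2 fold changes of -0.49 and -0.51 (edgeR adjusted p = 1.09e-06 and 5.31e-07).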
